A study of Mus musculus with 23 samples.

Results

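Fkbp5, Zbtb16, Plin4 and Cdkn1a are 4 genes whose transcripts are used as readouts of glucocorticoid hormone action, and here they were followed in the prefrontal cortex of mice that had received tumour cells under the skin. They were found by symbol in the platform annotation of the total RNA arrays, where they make up 4 of 8726 named genes. Each has 1 oligonucleotide, printed as 1 spot on each of the 2 printings used. The mice were female Balb/c animals of 8 weeks with no stated genetic change. The tumour groups were injected subcutaneously with 100000 cells of 4T-1, a transplantable mammary carcinoma line of this strain, suspended in 100 µl of saline (PBS); their cortex was taken 18, 72 or 192 h later. The PBS groups, one for each time, received the saline alone. Each array was hybridised with one tumour RNA and one PBS RNA in opposite dyes, and each replicate was measured on a pair of arrays with the dyes exchanged. These 14 arrays hold 7 replicates, numbered 4, 5 and 6 at 18 h and 3 and 4 at each later time. Another 9 arrays of poly A RNA were not used here. The labels do not say how many mice stand behind a replicate. The p-values therefore set the mean ratio against the spread among these RNA samples, which may be technical in part. Tissue RNA cannot tell fewer cells of a type from less RNA per cell.

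Glucocorticoids, corticosterone in the mouse, are released by the adrenal cortex under stress and reach the brain through the blood. Inside the cell they bind the glucocorticoid receptor, which is held by chaperones until then and afterwards enters the nucleus and binds DNA at an inverted pair of short sites. Fkbp5 encodes FKBP51, an immunophilin co-chaperone that lowers the receptor's affinity for hormone and is itself induced by the receptor, which closes a short feedback loop. Zbtb16 encodes PLZF, a zinc finger transcriptional repressor. Plin4 encodes perilipin 4, a protein of the lipid droplet surface. Cdkn1a encodes p21, an inhibitor of cyclin-dependent kinases that is induced by p53 and also by glucocorticoids.

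The 250 bases upstream of the gene start of Fkbp5 and Cdkn1a are shown because they are the letters in which a receptor site next to the start would be read. They come from RefSeq on GRCm38.p6, Fkbp5 at chr17:28486150-28486399 on the minus strand and Cdkn1a at chr17:29090729-29090978 on the plus strand. The window of Plin4, at chr17:56109783-56110032 on the minus strand, belongs to a start inside the annotated gene and overlaps it, so it was searched and is not printed. Zbtb16 is named only. Capitals mark the match to the p53 response element core.
Fkbp5: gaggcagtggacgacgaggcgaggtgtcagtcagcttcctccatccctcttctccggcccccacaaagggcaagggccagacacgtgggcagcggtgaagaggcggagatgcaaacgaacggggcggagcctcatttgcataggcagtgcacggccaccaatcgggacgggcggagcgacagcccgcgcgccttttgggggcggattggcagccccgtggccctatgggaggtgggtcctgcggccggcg
Cdkn1a: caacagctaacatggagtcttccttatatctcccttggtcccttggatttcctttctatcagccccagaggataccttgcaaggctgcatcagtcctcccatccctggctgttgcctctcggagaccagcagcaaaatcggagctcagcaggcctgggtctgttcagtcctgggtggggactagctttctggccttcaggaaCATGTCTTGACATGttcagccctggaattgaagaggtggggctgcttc
Both strands were searched for 3 motifs. The inverted repeat GNACANNNTGTNC, a form of the glucocorticoid response element, is found in 0.387% of 32851 such windows of the mouse genome and in none of these 3. Its single arm TGTTCT, found in 16.1% of windows, is not in these windows either. The p53 core CATGNNNNNNCATG is in 0.49% of windows and was found once, in the Cdkn1a window from base 203 on. A further Cdkn1a start inside the gene, with its window at chr17:29093519-29093768, holds none of the 3 motifs. A match is a description of letters, and none of these data measure binding.

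None of the 4 genes passed the test between tumour and PBS cortex at any time at which it could be tested. Cdkn1a had the lowest ratio, at 72 h, where its log2 ratio of tumour over PBS was -0.51 ± 0.18 (SE, n = 2), an adjusted p of 0.998 in the limma fit over all oligos. The SE and interval of a fitted ratio rest on a single spread per oligo shared by all times. They do not rest on the replicates of that time alone. Fkbp5 and Zbtb16 had ratios slightly above 0 at 18 h, and Plin4 lay below 0 at 18 h and above 0 at 72 h. At an adjusted p under 0.05 no oligo of the array was called at 18 h (0% of 3361), at 72 h (0% of 4212) or at 192 h (0% of 2753). Of the 6 tests of these genes 0 passed, against that background of 0%. The unadjusted p was under 0.05 for 6.16% of oligos at 18 h, 2.71% at 72 h and 3.34% at 192 h, and for 1 of the 6 tests of these genes. None of the 4 was tested at every time, and of the 1222 oligos that were, 0% passed for the average over the times and 0% for a difference between them at the adjusted threshold, with 2.05% and 3.93% at an unadjusted p under 0.05.

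How much of each gene the arrays measured limits every value that follows. Each array was scanned 3 times, which gives 42 scans, and a reading was usable where both dyes gave a good spot with a signal above 0. Fkbp5 was usable in 14 of 42 scans (33.3%), Zbtb16 in 17 (40.5%), Plin4 in 27 (64.3%) and Cdkn1a in 25 (59.5%). The median oligo was usable in 21 scans, with quartiles of 14 and 29, so Fkbp5 and Zbtb16 were among the less often measured and the other two among the more often measured. The signal of a usable spot was about as large as the local background already subtracted from it. For Fkbp5 the median ratio of signal to background was 1.05 in tumour RNA and 0.906 in PBS RNA. It was 1.19 and 1.05 for Zbtb16, 1.36 and 1.11 for Plin4, and 1.16 and 1.3 for Cdkn1a, tumour RNA first in each. Over all usable spots of the arrays the median was 1.04, taken from whichever channel had the lower ratio.

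One channel was often read without the other. Fkbp5 had a signal above 0 in 25 scans of tumour RNA and in 19 scans of PBS RNA. In 11 scans its tumour channel alone was above 0 and in 5 scans its PBS channel alone. Zbtb16 had a signal in 30 scans of tumour RNA and 23 of PBS RNA, Plin4 in 35 and 32, and Cdkn1a in 32 and 30. At 18 h Fkbp5 had a signal in 14 of 18 scans of tumour RNA and 8 of 18 of PBS RNA, while at 72 h it had 6 and 7 of 12. Zbtb16 at 192 h had a signal in 10 of 12 scans of tumour RNA and 5 of 12 of PBS RNA. The gaps of Fkbp5 at 18 h and Zbtb16 at 192 h were the widest by gene and time. At 72 h Zbtb16 and Plin4, like Fkbp5, had more scans with a signal in PBS RNA. Zeros were in part shared within an array. On the Cy3 array of replicate 3 at 192 h the PBS channel was 0 in every scan for Fkbp5, Zbtb16 and Plin4, but not for Cdkn1a. The 3 scans of a slide repeat one measurement, so these counts were not tested. They were not set against all oligos, and a scan with one channel at 0 gives no ratio. By dye, Cy5 first, the scans above 0 were 23 and 21 for Fkbp5, 28 and 25 for Zbtb16, 32 and 35 for Plin4, and 32 and 30 for Cdkn1a. The part of the dye in these counts was not tested.

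**Figure D1:**
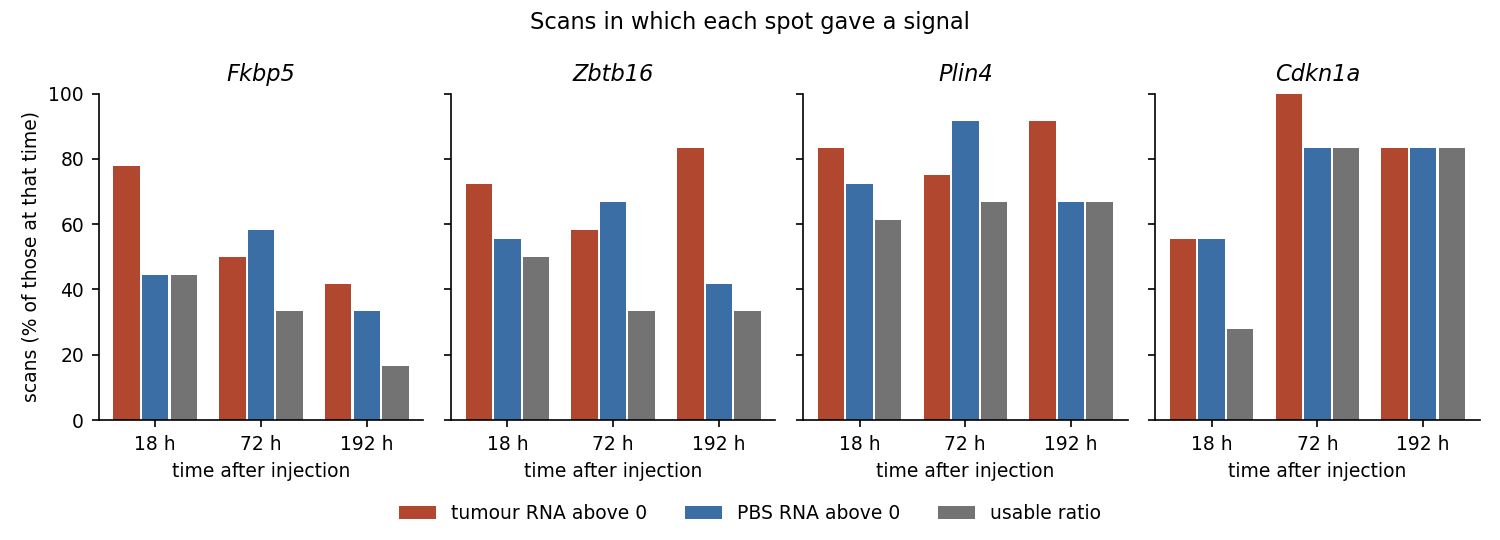
Percent of scans (vertical axis) at 18, 72 and 192 h in which the spot of each gene had a signal above 0 in tumour RNA (red), in PBS RNA (blue) and a usable ratio of both (grey), of 18, 12 and 12 scans. Fkbp5 at 192 h was usable in 2 of 12 scans, and Cdkn1a at 72 h in 10 of 12.

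Ratios are given on the log2 scale as tumour over PBS, after a loess curve had removed the dependence on brightness within each scan. Above 0 means more signal in tumour cortex. This direction is likely and not settled, because the scanner tables name their channels A and B and no dye. It rests on the labelled dyes and the authors' own log ratios, which followed channel B over A where the tumour RNA carried Cy5 (7 arrays, r across oligos 0.465 to 0.841) and ran against it where it carried Cy3 (7 arrays, -0.838 to -0.361). A replicate has a value where both of its arrays gave one, and is their mean.

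Fkbp5, the receptor's co-chaperone, had mean spot intensities of 40557 to 418588 in tumour RNA and 65143 to 191482 in PBS RNA over the arrays that measured it. The ranges overlap. At 18 h the array with tumour RNA in Cy5 gave 0.38 in replicate 4, 0.00 in replicate 5 and 0.39 in replicate 6. The array with tumour RNA in Cy3 gave no usable reading in replicate 4, 0.07 in replicate 5 and -0.07 in replicate 6. The replicate values at 18 h were thus 0.03 and 0.16, and the fitted log2 ratio was 0.10 ± 0.15 (SE, n = 2), with a 95% interval of -0.23 to 0.42 and a limma adjusted p of 0.972. At 72 h replicate 3 gave 0.33 on its Cy5 array alone, and replicate 4 gave 0.50 and -0.45 on its Cy5 and Cy3 arrays, a mean of 0.03. At 192 h the Cy5 array of replicate 4 gave 0.25 and the other 3 arrays no usable reading, so neither later time could be tested.

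Over the 3 replicates with both arrays Fkbp5 averaged 0.07 ± 0.08 (SD, n = 3; 0.03 without replicate 6 at 18 h), above 0 in 3 of 3, with an exact two-sided sign-flip p of 0.25, the smallest that 3 replicates allow. Of all oligos with 3 replicate values, 11.6% also had all of them above 0. The 2 arrays of a swap differed in sign in each of these 3 replicates. Where 1 array was taken as enough, 6 replicates had a value, all 6 were above 0 and the mean was 0.20 ± 0.06 (SE, n = 6), with an exact p of 0.03125, the smallest 6 replicates allow, among 4 genes tested this way. Of the oligos with 6 such values, 1.5% had all of them above 0. The 3 values that this adds, 0.38, 0.33 and 0.25, all come from arrays with tumour RNA in Cy5, and in replicates with both arrays the Cy5 array was the higher one in 2 of 3. An effect of the dye and of the tumour cannot be told apart in those added values.

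Zbtb16, the gene of the zinc finger repressor PLZF, had mean spot intensities of 116116 to 327334 in tumour RNA and 100822 to 292668 in PBS RNA. In replicate 5 at 18 h its arrays gave 0.03 with tumour RNA in Cy5 and 0.14 with tumour RNA in Cy3. In replicate 6 they gave -0.15 and 0.46 in the same order, and replicate 4 gave no usable reading. Both replicate values, 0.09 and 0.15, were above 0, and the fitted log2 ratio at 18 h was 0.12 ± 0.15 (SE, n = 2), with a 95% interval of -0.20 to 0.44 and a limma adjusted p of 0.965. With 2 replicates the exact sign-flip p can go no lower than 0.5, which is the value found.

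Zbtb16 was measured on 1 array of each swap at the later times. Those with tumour RNA in Cy3 gave -0.37 in replicate 3 and 0.27 in replicate 4 at 72 h, which lie on either side of 0. At 192 h the Cy5 array of replicate 3 gave -0.03 and the Cy3 array of replicate 4 gave 0.25. For Zbtb16 the Cy5 array was the lower one in both complete swaps, by 0.11 and 0.61.

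Plin4, the lipid droplet protein, was the most often measured of the 4, with mean intensities of 68918 to 411021 in tumour RNA and 42762 to 333810 in PBS RNA. At 18 h replicate 4 gave -0.23 with tumour RNA in Cy5 and -0.36 with tumour RNA in Cy3, a mean of -0.30. Replicate 6 gave 0.27 and -0.30 in that order, a mean of -0.01, and replicate 5 gave 0.00 on its Cy5 array alone. Both replicate values lay below 0, and the fitted log2 ratio at 18 h was -0.15 ± 0.15 (SE, n = 2), with a 95% interval of -0.48 to 0.17 and a limma adjusted p of 0.931.

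At 72 h Plin4 gave 0.52 and 0.10 on the Cy5 and Cy3 arrays of replicate 3 and 0.48 and -0.32 on those of replicate 4. The replicate values of 0.31 and 0.08 were both above 0, and the fit gave 0.19 ± 0.15 (SE, n = 2), a 95% interval of -0.13 to 0.52 and a limma adjusted p of 0.998. At 192 h replicate 4 gave 0.58 and 0.06, a mean of 0.32, while replicate 3 gave -0.21 on its Cy5 array alone. The 72 h minus 18 h difference was 0.35 ± 0.21 (SE), with a 95% interval of -0.13 to 0.83 and a limma adjusted p of 0.937 over 2032 oligos, none of which was called. Among oligos with 2 values at each time, 10.8% had all values of one time above 0 and all of the other below it, 6.36% in the direction seen for Plin4.

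Over 5 replicates Plin4 averaged 0.08 ± 0.25 (SD, n = 5), with 3 above 0 and 2 below and an exact sign-flip p of 0.4375. This mean was 0.17 without replicate 4 at 18 h, and 0.02 without either replicate 3 at 72 h or replicate 4 at 192 h. The larger contrast was between the dyes. The array with tumour RNA in Cy5 gave the higher ratio in 5 of 5 swaps, by 0.49 ± 0.24 (SD) on the log2 scale, with an exact p of 0.0625 that is the smallest 5 swaps allow. The same order in every swap was found for 7.58% of oligos with 5 swaps. The 2 usable scans of the Cy5 array of replicate 3 at 72 h differed by 1.18 from each other, more than any difference between replicate values of this gene.

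Cdkn1a, the gene of p21, had mean intensities of 98325 to 321302 in tumour RNA and 115377 to 343441 in PBS RNA. At 72 h replicate 3 gave -1.78 on its Cy5 array and -0.05 on its Cy3 array, a mean of -0.91. Replicate 4 gave -0.18 and -0.04 in that order, a mean of -0.11. All 4 arrays at 72 h lay below 0, but the 2 replicate values are far apart. The fitted log2 ratio was -0.51 ± 0.18 (SE, n = 2), with a 95% interval of -0.90 to -0.12, an unadjusted p of 0.0133 and an adjusted p of 0.998. This SE and interval use the spread shared by all times and do not measure the distance between the 2 values at 72 h. Smaller p-values were found for 27 of the 4212 oligos tested at 72 h.

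The array value of -1.78 is a single scan. Scan 2 of that array read 122284 in tumour RNA and 326387 in PBS RNA. In scans 1 and 3 the tumour channel read 92234 and 152519, while the PBS channel was given as 0, without the mark taken for a good spot. Without replicate 3 the ratio at 72 h was -0.11, and without replicate 4 it was -0.91. With at least 2 usable scans required per array, Cdkn1a had no test at 72 h, and its mean over the 2 remaining replicates was -0.05.

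At 192 h Cdkn1a gave -0.18 and -0.20 on the Cy5 and Cy3 arrays of replicate 3 and -0.19 and 0.20 on those of replicate 4. The replicate values of -0.19 and 0.00 gave a fitted ratio of -0.09 ± 0.18 (SE, n = 2), with a 95% interval of -0.48 to 0.29 and a limma adjusted p of 1. Without replicate 3, the replicate on the other printing, the value at 192 h was 0.00. At 18 h no replicate had both arrays, and the single arrays of replicates 4 and 6 gave -0.14 and -0.12. The 192 h minus 72 h difference was 0.42 ± 0.25 (SE; 95% interval -0.11 to 0.94, limma adjusted p 0.979). Over 4 replicates Cdkn1a averaged -0.30 ± 0.41 (SD, n = 4), below 0 in 3 of 4, with an exact sign-flip p of 0.25 where 4 replicates allow 0.125. Without replicate 3 at 72 h that mean was -0.10.

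**Figure D2:**
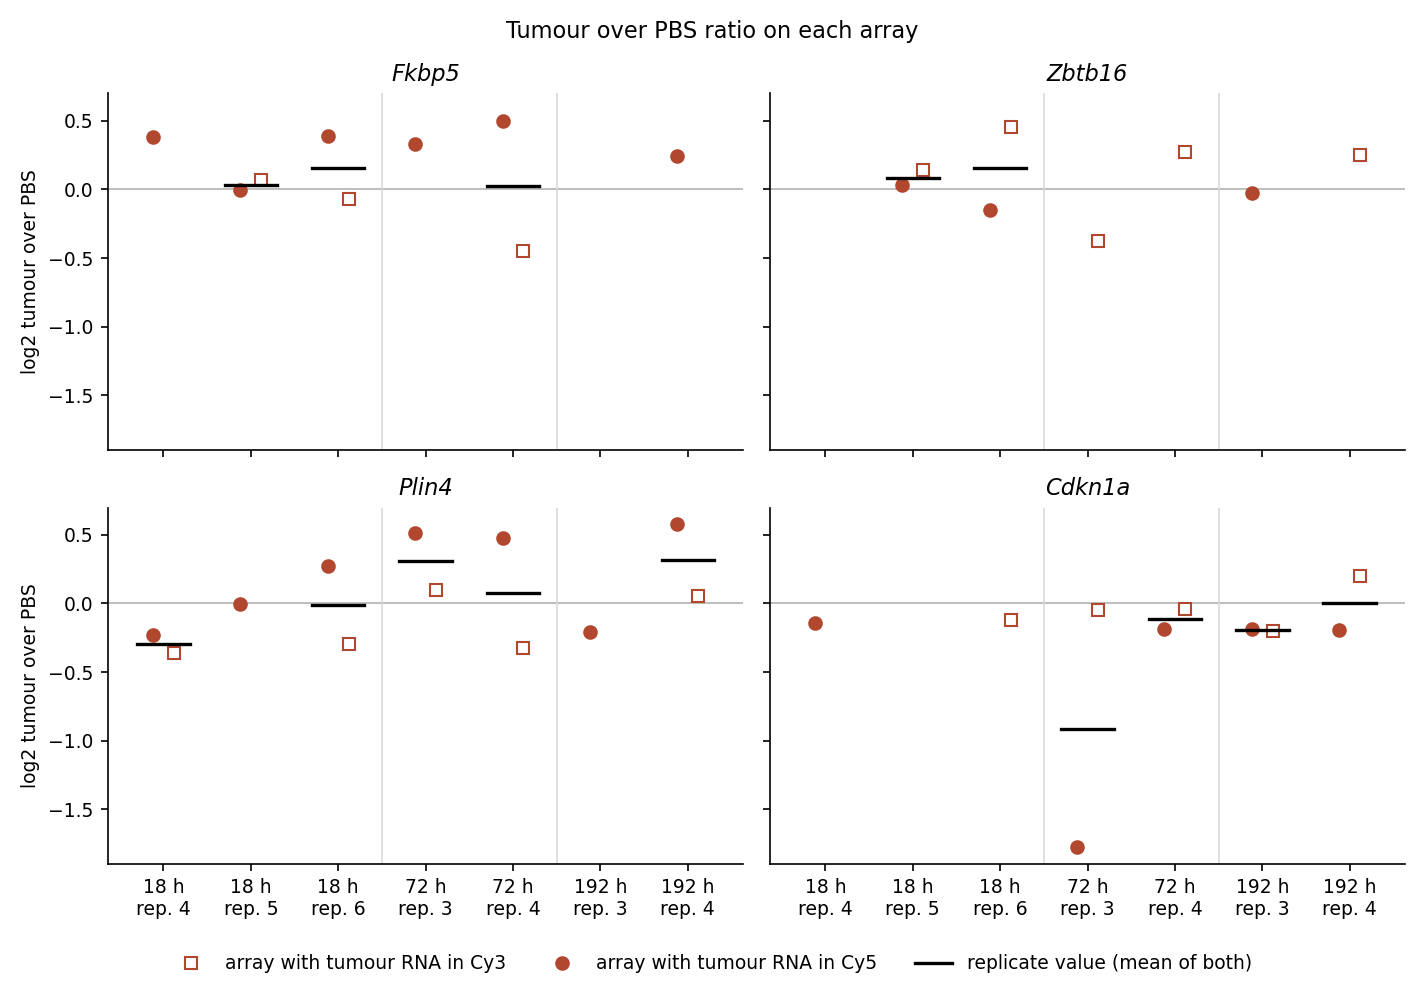
Log2 ratio of tumour over PBS (vertical axis) on each array of the 7 replicates for each gene; filled circles are arrays with tumour RNA in Cy5, open squares those with tumour RNA in Cy3, and black bars the replicate value where both exist. The circles of Plin4 lie above its squares in 5 of 5 swaps, and the Cy5 array of Cdkn1a in replicate 3 at 72 h lies alone at -1.78.

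Arrays of a swap differed over the whole platform as well. Over all oligos the 2 arrays of a swap, once both were turned to tumour over PBS, correlated below 0 in 6 of 7 replicates (r across oligos -0.596 to 0.156, median -0.288). Replicates of the same time correlated at -0.12 to 0.0894 over 5 pairs, with a median of 0.0259. Between 2307 and 6694 oligos had a value per replicate. The median 95% interval of an oligo reached 0.318 to either side on the log2 scale at 18 h, 0.323 at 72 h and 0.321 at 192 h. A p above the threshold does not show that the levels were equal.

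The genes of a list of glucocorticoid-responsive genes lay on both sides of 0 at each time. The array names 18 of 31 listed genes, the 4 described above included, and 10 of them were testable at 18 h, as many at 72 h, and 5 at 192 h. None was called at an adjusted p under 0.05. At 18 h 5 were above 0 and 5 below, with a median log2 ratio of -0.03, against -0.01 over all oligos. At 72 h 4 were above and 6 below with a median of -0.07, against -0.02 over all oligos. At 192 h 2 were above and 3 below with a median of -0.09, against 0.02 over all oligos. That median at 192 h is the value of Cdkn1a itself. The list was drawn up with earlier results of these data known, and its counts are a description.

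Among the best measured members of that list was Klf9, a zinc finger factor induced by glucocorticoids, usable in 39 of 42 scans. Its replicate values were 0.05, -0.05 and 0.01 at 18 h, followed at 72 h by -0.04 and -0.07 and at 192 h by 0.09 and 0.02, all within 0.1 of 0 on the log2 scale. Mt1, a metal-binding metallothionein usable in 38 scans, gave 0.17 and 0.01 at 18 h, with values below 0 later, -0.11 and -0.14 at 72 h, then -0.05 and -0.16 at 192 h. Dusp1, a phosphatase that switches off MAP kinases, gave 0.12 and -0.28 at 18 h and -0.17 and 0.35 at 72 h, with its replicates on opposite sides of 0 at both times. Rhob, a small GTPase, gave -0.09 in replicate 3 and 1.03 in replicate 4 at 72 h, a fitted 0.47 ± 0.21 (SE, n = 2) with an unadjusted p of 0.0405 and a limma adjusted p of 0.998. Like Cdkn1a, its value at that time rests on one of the 2 replicates. Bcl6, a transcriptional repressor, was at -0.15 ± 0.16 (SE, limma adjusted p 0.943) at 18 h and Lcn2, a siderophore-binding protein, at -0.11 ± 0.16 (SE, limma adjusted p 1) at 192 h.

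**Figure D3:**
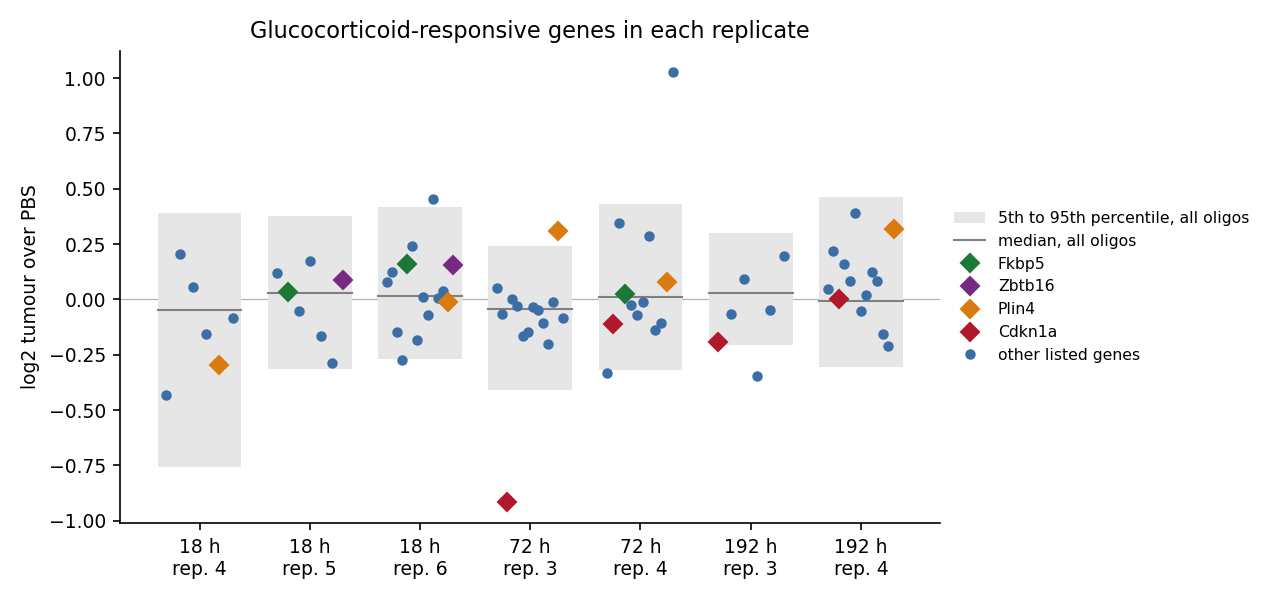
Log2 ratio of tumour over PBS (vertical axis) of every listed glucocorticoid-responsive gene with a value in each of the 7 replicates; diamonds are Fkbp5, Zbtb16, Plin4 and Cdkn1a, blue points the other listed genes, grey boxes the 5th to 95th percentile of all oligos in that replicate and grey lines their median. Between 0 and 2 listed genes per replicate lie outside the box, and Cdkn1a in replicate 3 at 72 h is the lowest point at -0.91.

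The partners of these genes were described in the same way. Of 23 receptors, chaperones and cofactors listed, 11 are named on the array, without the glucocorticoid receptor gene Nr3c1 itself in this annotation. None of the 6 tested at 18 h, 4 at 72 h or 6 at 192 h was called, and the medians were -0.04, -0.10 and 0.06. Hsp90aa1, the chaperone that holds the receptor ready for hormone, was at -0.13 ± 0.13 (SE, n = 3) at 18 h, and Ncoa2, a receptor coactivator, at 0.14 ± 0.12 (SE, n = 3) at 18 h and 0.15 ± 0.14 (SE, n = 2) at 192 h (limma adjusted p 0.931, 0.914 and 1). Ppp5c, a phosphatase bound to the receptor complex, was at -0.12 ± 0.11 (SE, n = 3) at 18 h. Of 7 named genes of hormone supply and release, Hsd11b2, which inactivates corticosterone, was at -0.38 ± 0.24 (SE, n = 2) at 18 h and 0.29 ± 0.24 (SE, n = 2) at 192 h, and Crhr1, the corticotropin-releasing hormone receptor, at 0.09 ± 0.14 (SE, n = 2) at 18 h. The limma adjusted p of these values was 0.892 or higher.

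Fkbp5 belongs to the FK506-binding immunophilins, of which 7 of 14 are named and none was called. Fkbp8 had the smallest p among them at 18 h, at 0.23 ± 0.11 (SE, n = 3, limma adjusted p 0.818), with Fkbp1a at -0.10 ± 0.11 (SE, n = 3) at the same time. Plin4 belongs with the lipid droplet genes, of which 6 of 8 are named. Plin5, another perilipin, was at -0.28 ± 0.15 (SE, n = 2, limma adjusted p 0.828) at 18 h, 0.10 ± 0.15 at 72 h and 0.09 ± 0.15 at 192 h (n = 2 each). Pnpla2, a triglyceride lipase, was at 0.27 ± 0.15 (SE, n = 2, limma adjusted p 1) at 192 h.

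For Cdkn1a, 10 of 18 listed p53 targets and regulators are named. All 4 tested at 18 h were below 0, with a median of -0.11. At 72 h 4 of 5 were above 0, with a median of 0.07, and at 192 h 1 of 3. Of all oligos, 47.7% lay above 0 at 18 h, 45.6% at 72 h and 55.3% at 192 h. None of these listed genes was called, and the genes tested were in part different ones at each time. At 72 h, where Cdkn1a was at -0.51, Gadd45a, a growth arrest gene, was at -0.20 ± 0.15, Plk2, a polo-like kinase, at 0.11 ± 0.14, and Zmat3 at 0.10 ± 0.15 (SE, n = 2 each, limma adjusted p 0.998 each). Of 20 cyclins, cyclin-dependent kinases and inhibitors 10 are named, none was called, and the 5 tested at 72 h had a median of 0.08, with the inhibitor gene Cdkn2c at 0.11 ± 0.15.

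A ratio pattern could be compared with other oligos for Plin4, which alone had 5 replicate values. Of 1378 oligos with values in the same 5 replicates, the most alike were Cyria (Pearson r 0.988), Mrpl17 (0.987) and Tmbim6 (0.987), and 52 oligos had an r above 0.9. The values of one replicate come from the same pair of slides in all these oligos, so a high r over 5 points is a description. In the order of the replicates from 18 to 192 h, Tmbim6 gave -0.31, -0.03, 0.12, -0.01 and 0.14, against -0.30, -0.01, 0.31, 0.08 and 0.32 for Plin4.

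Markers of the cortex and of neighbouring tissue were read for the same arrays. All 6 GABA neuron markers listed are named and 5 of them were usable in at least 21 scans, as were 7 of 8 oligos for excitatory neurons and cortical layers, 4 of 4 astrocyte, 4 of 5 oligodendrocyte and 4 of 7 microglial oligos. The 3 named markers of striatum and thalamus were each usable in at least 21 scans as well. None of the 7 listed blood markers is named in this annotation. At 72 h, the time of the lowest Cdkn1a value, 45.6% of all oligos lay above 0. All 3 tested endothelial and pericyte oligos were below 0, with a median of -0.37. All 3 oligodendrocyte oligos were below 0, with a median of -0.28. So were all 5 oligos for excitatory neurons and cortical layers, with a median of -0.15. These 5 oligos stand for 4 genes, as Tle4 has 2 of them. The other lists lay on both sides of 0 at 72 h, with 3 of 4 astrocyte oligos above 0 (median 0.05), 2 of 3 microglial (0.14), 3 of 5 for GABA neurons (0.02), 1 of 2 pan-neuronal (0.00) and 1 of 2 for striatum and thalamus (0.10). The endothelial gene Eng was at -0.53 ± 0.20 and the pericyte gene Rgs5 at -0.37 ± 0.14 at 72 h (SE, n = 2 each, limma adjusted p 0.998 each). No marker was called, and their part in the Cdkn1a value was not tested. At 18 h both pan-neuronal oligos tested were below 0, with Snap25 at -0.43 ± 0.14 (SE, n = 3, limma adjusted p 0.758). At that time 1 of 3 oligos for excitatory neurons and 1 of 2 for GABA neurons were above 0, against 47.7% of all oligos.

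**Figure D4:**
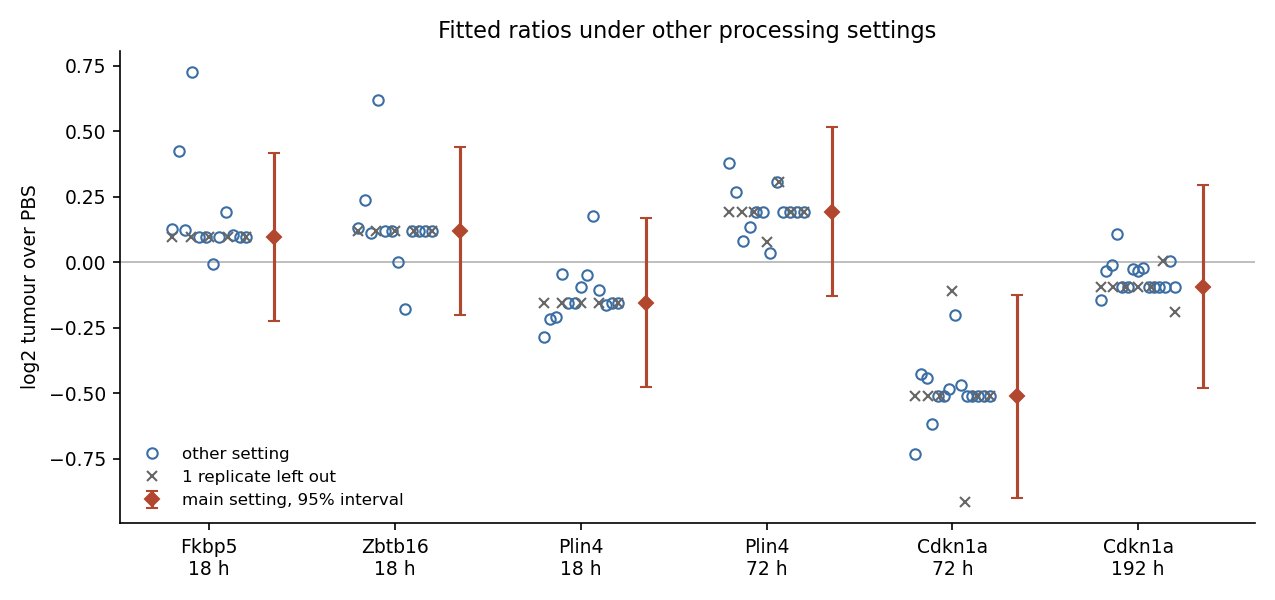
Fitted log2 ratio of tumour over PBS (vertical axis) for the 6 tests of these genes; the red diamond is the value reported, with its 95% interval, blue circles are other processing settings and crosses the fits with 1 replicate left out. The circles include ratios left as channel B over A, which are not tumour over PBS. They also include the authors' log ratios, whose base is not stated. The circles of Fkbp5 and Zbtb16 reach 0.73 and 0.62 where nothing was normalized, and the crosses of Cdkn1a at 72 h lie at -0.11 and -0.91 without one or the other of its replicates.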

How the data were processed

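Spot intensities were taken from the scanner tables the authors deposited, 3 per array with 10080 spots. Per the file headers they are integrated intensity values in channels A and B, with the local background already subtracted, beside the background and the fraction of unsaturated pixels the authors deposited for each spot. The image program is not named. The authors' deposited value tables hold a log ratio of unstated base per spot, treated as a score; the medians of their columns were -0.00637 to 0.00336. They served for the direction and as an alternative.

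A reading was usable with both channels marked C, both intensities above 0 and at least 0.9 of its pixels unsaturated. The mark C was taken as good, and the marks are not explained in the files. Spot readings were matched to the annotation by block and position. Log2 ratios were computed per scan, corrected with loess (span 0.3), averaged over usable scans and turned to tumour over PBS; both arrays of a swap were averaged. Tests were run with limma 3.58.1 under R 4.3.3, fitting each time as its own coefficient, on oligos with at least 2 replicate values at a time; p-values were adjusted over all oligos tested (Benjamini-Hochberg). Each oligo had a single spread in the fit, shared by all times and drawn by limma towards that of all oligos. Differences between 2 times were limma contrasts, added after seeing that none of the 4 genes was tested at every time. The average over the times and the F test between them used oligos tested at every time. Exact p-values are two-sided sign flips over replicates. The fit was tested on simulated data. Alternatives changed the background correction, normalization, spot filters, scans, need for both arrays, tool settings and replicates. Precision is limited by the number of arrays. The genes, the lists and the rule for naming genes (these 4, the 3 most alike oligos over at least 5 replicates, and at most 3 genes per list and time by smallest p) were chosen with earlier results of these data known. Klf9 and Dusp1 fall outside this rule and were chosen for their coverage after their values were seen. Python 3.11.15 was used for the sequences.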

Additional observations from a re-analysis of the deposited data

Results flagged for a closer look

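Plin4 had every replicate value below 0 at 18 h (-0.30 and -0.01) and every one above 0 at 72 h (0.31 and 0.08). The difference of 0.35 on the log2 scale, 72 h minus 18 h, did not pass the test of the difference itself (limma adjusted p 0.937). Of oligos with 2 values at each of these times, 10.8% had none of the 18 h and 72 h values on the same side of 0. In the direction of Plin4 the share was 6.36%. The value of -0.01 is the mean of arrays at 0.27 and -0.30.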

How the results depend on the processing

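No setting gave any of the 6 tests of these genes an adjusted p under 0.05, over 18 alternatives and 7 fits with 1 replicate left out; several alternatives gave some of the genes no value. Signs changed in a few. With nothing normalized Cdkn1a at 192 h was 0.11, and Fkbp5 at 18 h was 0.73 (limma adjusted p 0.154). In the authors' deposited tables Fkbp5 at 18 h was -0.0066. With scan 1 alone the mean of Cdkn1a over replicates was 0.0089. With the ratios left as channel B over A, Plin4 at 18 h was 0.18 and Zbtb16 at 18 h, and over replicates, -0.18; that setting called 49 oligos at 18 h, 18 at 72 h and 10 for the average, against 0 each as reported. Median centring without loess called 8 oligos at 18 h and 1 at 192 h; it put Fkbp5 at 0.42 at 18 h (limma adjusted p 0.476) and at 0.40 over its 3 replicates, and Zbtb16 at 0.24 at 18 h. With 1 array of a swap enough, the mean of Fkbp5 was 0.20 (exact p 0.03125), as described. The 2-array printing holds only replicate 3 at 192 h, so the fit without it is the fit without that replicate. It is counted both among the 18 alternatives and among the 7. Cdkn1a at 192 h was 0.0034 in it. Leaving out 1 replicate moved the calls between 0 and 1 at 72 h, between 0 and 19 at 192 h and between 0 and 1 for the difference between times, and Cdkn1a at 192 h between -0.19 and 0.0034; a lone remaining replicate was assumed to vary like the others. The cause of these changes was not tested.

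Replicate numbers did not mark shared deviations (r 0.00459, -0.0766 and -0.104 for the 3 same-numbered pairs compared). With the replicate block over 72 and 192 h, 0 oligos were called at either time or between them (61, 82 and 66 at an unadjusted p under 0.05). Cdkn1a was at -0.51 ± 0.15 and -0.09 ± 0.15 (SE, limma adjusted p 0.966 and 0.99). The block is balanced over the times, so it could change the SE and the p of these ratios but not the ratios.

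Depth is limited by signal near the background, by 2 or 3 replicates a time and by readings missing in one channel. Requiring at least 2 usable scans per array, an alternative chosen after seeing the data, left none of the 6 tests of these genes.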
